A study of Rattus norvegicus with 4 samples.

Results

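The neuronal nicotinic acetylcholine receptor subunits Chrna2 to Chrna7 and Chrnb2 to Chrnb4 were examined in primary cultures of rat cortical neurons held in raised potassium. All probe sets of the array annotated with 1 of these 9 gene symbols were taken, which gave 12 of the 1322 probe sets in the table and 9 of its 722 named genes. Chrna7 had 3 probe sets, Chrnb4 had 2 and each other subunit had 1. The neurons were prepared from embryonic rat cortex at day 17 of gestation and were kept for 14 days in serum-free medium with a neuronal supplement. The KCl group (2 arrays, KCl 1 and KCl 2) received 25 mM KCl for 4 h, and the control group (2 arrays, control 1 and control 2) received phosphate-buffered saline for 4 h. The rat strain is not stated in the labels. The description label gives all 4 samples the wording of an unstimulated state, while titles and treatment protocols separate the groups. The labels do not tell whether the arrays of a group come from separate cultures, so each p-value rests on a spread that may be technical.

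Nicotinic receptors are pentameric cation channels opened by acetylcholine and by nicotine. The alpha subunits Chrna2, Chrna3, Chrna4 and Chrna6 carry the main face of the binding site and need a beta partner, Chrnb2 or Chrnb4, while Chrna5 and Chrnb3 are accessory subunits and Chrna7 can form channels alone. In the rodent cortex the receptors best known are the Chrna4 with Chrnb2 combination and the Chrna7 channel. The Chrna3 with Chrnb4 combination is best known from autonomic ganglia and the medial habenula, and Chrna6 with Chrnb3 from midbrain dopamine neurons.

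The values are probe set intensities in arbitrary units, deposited on a linear scale. Probes differ in brightness, so intensities are compared between arrays for 1 probe set and not between subunits. Background was read from 19 control probe sets for bacterial and yeast transcripts taken as not spiked in, and bright spike-in controls were left out. The 19 had a median intensity of 9.05 and a highest value of 73.7. That highest value was on control 1. The other arrays reached 36.9 on control 2, 61.8 on KCl 1 and 65.9 on KCl 2. A probe set is called above background on an array when it exceeded 73.7. A total of 6 other control probe sets read the opposite strand of β-actin and Gapdh, and these reached 143.8.

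Chrna3, Chrna4 and Chrnb4 were the subunits with a probe set above background on all 4 arrays, and Chrna7, Chrnb2 and Chrna5 exceeded it on some arrays. Chrna2, Chrna6 and Chrnb3 were within background on every array. No subunit passed the test for a change after KCl. By probe set, 3 of 12 lay above background on all 4 arrays, 4 on some and 5 on none. Over all 1263 probe sets other than controls, 51.8% were above it on all 4 arrays and 34.5% on none. None of the 12 exceeded the opposite-strand limit of 143.8 on all 4 arrays, against 40.3% of all probe sets, so the presence of Chrna3, Chrna4 and Chrnb4 depends on which control sets the limit.

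**Figure D1:**
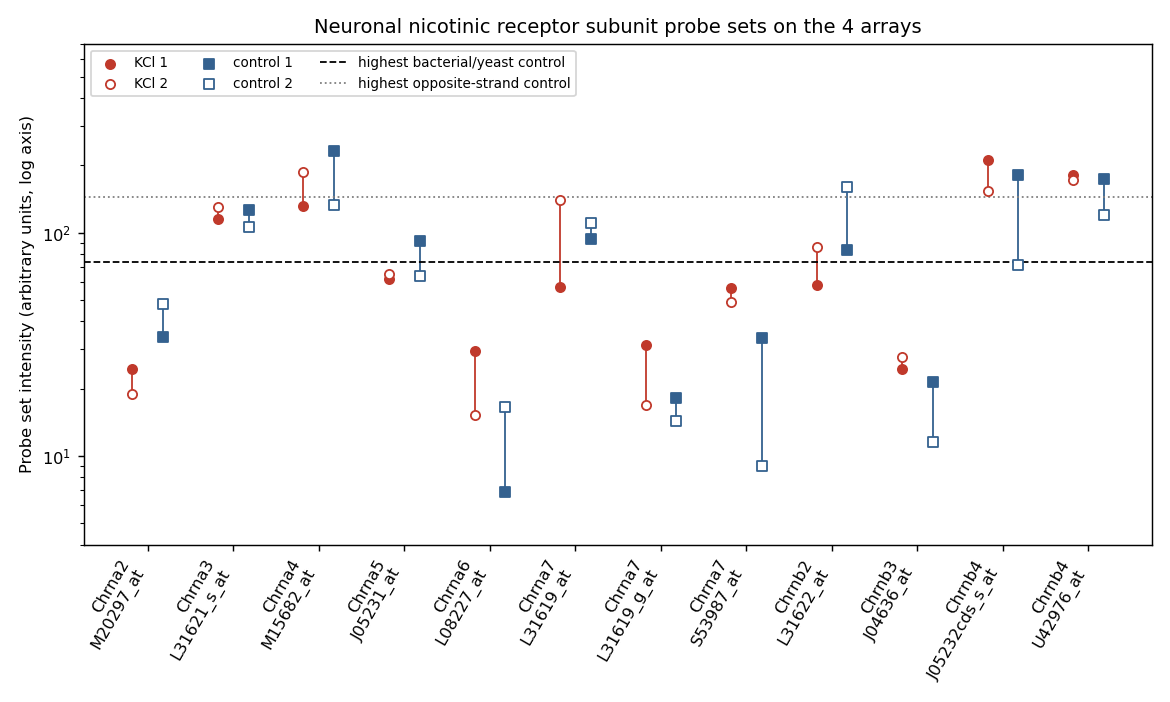
Intensity (log axis, arbitrary units) of the 12 nicotinic receptor probe sets, with KCl arrays as red circles and control arrays as blue squares, replicate 1 filled and replicate 2 open. The dashed line is the highest of the 19 bacterial and yeast background controls (73.7) and the dotted line the highest opposite-strand control (143.8). Chrna3, Chrna4 and one Chrnb4 probe set stay above the dashed line on all 4 arrays, and none stays above the dotted line.

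Chrna3 encodes the alpha subunit of the ganglionic receptor. The suffix of its probe set (L31621_s_at), shared by J05232cds_s_at of Chrnb4, marks probes that may match more than one transcript. The Chrna3 probe set read 115.5 on KCl 1 and 130.5 on KCl 2, against 126.6 on control 1 and 106.2 on control 2. The groups overlapped and each array lay above 73.7 and below 143.8. The mean was 123 ± 11 after KCl and 116 ± 14 in controls (SD, n = 2 arrays per group). The log2 change was 0.08 ± 0.25 (SE; limma adjusted p = 0.87), and its 95% interval ran from 0.71-fold to 1.59-fold.

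Chrnb4 encodes the beta subunit that pairs with Chrna3 in ganglia. Its probe set U42976_at read 181.3 on KCl 1 and 171.6 on KCl 2, against 173.3 on control 1 and 119.8 on control 2. Its probe set J05232cds_s_at read 212.3 and 154.2 after KCl, against 181.9 and 71.7 in controls. On both probe sets control 2 was the lowest array, and on J05232cds_s_at it alone fell below 73.7. Without control 2 the log2 change of J05232cds_s_at was −0.01, against 0.66 ± 0.41 (SE; limma adjusted p = 0.35) on all 4 arrays. The log2 change of U42976_at was 0.29 ± 0.25 (SE; limma adjusted p = 0.51), with an interval from 0.83-fold to 1.81-fold. Without KCl 2, which leaves 1 KCl array, the log2 change of J05232cds_s_at was 0.89.

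Chrna4 encodes the alpha subunit of the main high-affinity nicotine site of the brain. Its probe set (M15682_at) read 131.4 on KCl 1 and 186.2 on KCl 2, against 231.7 on control 1 and 133.3 on control 2. The groups overlapped, with KCl 1 and control 2 close to each other and control 1 the highest array. The ratio of control 1 to control 2 was 1.74 and that of KCl 2 to KCl 1 was 1.42. The log2 change was −0.17 ± 0.31 (SE; limma adjusted p = 0.77), and the interval ran from 0.55-fold to 1.45-fold. It had either sign when single arrays were left out, from −0.57 without control 2 to 0.23 without control 1. The 3 probe sets above background on all arrays thus each had a 95% interval inside 2-fold in either direction, and the other 5 tested members did not.

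By the RefSeq annotation (GRCr8), Chrna5, Chrna3 and Chrnb4 are direct neighbours among protein-coding genes of rat chromosome 8, while Chrna6 and Chrnb3 are neighbours on chromosome 16. Of the 9 subunits, 6 had an entry in the RefSeq promoter table (GRCr8). The 250 bases before the annotated start are shown for the 3 subunits above background, the members that exceeded 73.7 on all arrays. They lie at chr8:64311252-64311501 for Chrna3, chr8:64333110-64333359 for Chrnb4 and chr3:188534527-188534776 for Chrna4, all on the minus strand and printed 5′ to 3′ along the gene. Capitals mark GC boxes (GGGCGG, or CCGCCC on the other strand), the letters that Sp1 family factors are known to bind.
Chrna3: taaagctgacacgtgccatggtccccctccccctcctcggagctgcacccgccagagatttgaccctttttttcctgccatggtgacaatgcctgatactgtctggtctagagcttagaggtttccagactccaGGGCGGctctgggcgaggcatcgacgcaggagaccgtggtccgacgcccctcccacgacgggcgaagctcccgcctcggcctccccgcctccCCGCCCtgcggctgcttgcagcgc
Chrnb4: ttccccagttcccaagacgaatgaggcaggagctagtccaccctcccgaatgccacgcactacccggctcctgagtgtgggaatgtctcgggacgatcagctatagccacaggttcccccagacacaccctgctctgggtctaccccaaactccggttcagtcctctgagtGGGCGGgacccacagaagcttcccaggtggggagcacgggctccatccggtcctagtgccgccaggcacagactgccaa
Chrna4: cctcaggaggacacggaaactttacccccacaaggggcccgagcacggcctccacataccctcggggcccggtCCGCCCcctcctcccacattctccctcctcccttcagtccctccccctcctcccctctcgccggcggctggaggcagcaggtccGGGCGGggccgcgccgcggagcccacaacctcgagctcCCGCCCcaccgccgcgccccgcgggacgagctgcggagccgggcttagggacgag
The GC box letters occurred 2 times before Chrna3, 1 time before Chrnb4 and 3 times before Chrna4, and in all 6 promoters that were searched, which also cover Chrna5, Chrna7 and Chrnb2. Of 33469 windows of that length in the table, 30.5% held them. The 6 windows were rich in G and C, from 59.6% to 74.4%, against a median of 51.2% over all windows. The half-site of the cAMP response element (TGACG, or CGTCA on the other strand), through which CREB acts on many activity-regulated genes, was in none of the 6 windows and in 18.2% of all. No match says only that these letters are not in this window.

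Chrna7 encodes the subunit of the calcium-permeable channel that binds alpha-bungarotoxin. Its 3 probe sets did not agree on its presence. L31619_at read 56.9 on KCl 1 and 140.2 on KCl 2, against 93.8 on control 1 and 110 on control 2, so KCl 1 alone was within background. KCl 2 was 2.46 times KCl 1, and the control values lay between them. Its log2 change was −0.19 ± 0.43 (SE; limma adjusted p = 0.82), and without KCl 1 it was 0.46.

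The other Chrna7 probe sets stayed within background on all 4 arrays. S53987_at read 56.5 and 48.8 after KCl, against 33.8 and 9 in controls. These groups did not overlap, and control 1 was 3.76 times control 2. S53987_at did not pass (limma adjusted p = 0.24), and because both groups lay within background no size of change is given. L31619_g_at read 31.4 and 16.9 after KCl, against 18.1 and 14.3 in controls, and was too dim to be tested.

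Chrnb2, the usual partner of Chrna4, read 58.3 on KCl 1 and 86.4 on KCl 2, against 83.3 on control 1 and 160.4 on control 2 (L31622_at). The groups overlapped, and control 2 was 1.93 times control 1. KCl 1 was the only array within background. The log2 change was −0.70 ± 0.39 (SE; limma adjusted p = 0.29), with an interval from 0.33-fold to 1.15-fold. Of the members with an array above background it had the log2 change farthest from 0, and it ranged from −1.18 without control 1 to −0.23 without control 2.

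Chrna5, an accessory subunit that joins Chrna3 or Chrna4 receptors, read 62 on KCl 1 and 65 on KCl 2, against 91.4 on control 1 and 64 on control 2 (J05231_at). Control 1 alone was above 73.7, and the other 3 arrays read nearly alike. Against the highest background value of its own array, KCl 2 alone fell short (65 against 65.9). The log2 change was −0.27 ± 0.36 (SE; limma adjusted p = 0.68), and without control 1 it was −0.01.

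The subunits best known from small groups of neurons stayed within background. Chrna2, known in mouse cortex from a class of deep-layer interneurons, read 24.6 and 19 after KCl, against 34.2 and 47.8 in controls (M20297_at). Chrna6, the dopamine neuron subunit, read 29.4 and 15.2 after KCl, against 6.9 and 16.5 in controls (L08227_at). Chrnb3, the accessory subunit of that receptor, read 24.4 and 27.8 after KCl, against 21.4 and 11.5 in controls (J04636_at). Chrna2 was lower and Chrnb3 higher after KCl with no overlap, and Chrna6 overlapped. All 12 values lay at or below 47.8, under the limit of 73.7. The 47.8 of Chrna2 on control 2 exceeded that array's own highest background value, 36.9. These 3 probe sets were among the dimmest 25% left out of the test, and with that filter dropped their limma adjusted p-values were 0.30, 0.45 and 0.49.

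Together, 0 of 8 tested nicotinic probe sets passed at a limma adjusted p below 0.05. At an unadjusted p below 0.05 the count was likewise 0, in limma and with an ordinary t statistic. Over all 947 tested probe sets 10.8% passed, and 25.6% had an unadjusted p below 0.05. Among the 410 tested probe sets with mean intensity above the filter's 33.3 and up to the members' highest, 170.7, 10 passed (2.44%). With the filter dropped, 0 of 12 passed, against 6.25% of 1263. The 2 groups of arrays did not overlap for 3 of the 12 members, against 52.6% of all probe sets. They were higher after KCl for 2 members and lower for 1, against 21.3% and 31.3% of all probe sets. Those 3 were S53987_at of Chrna7, Chrnb3 and Chrna2, each within background. The median log2 change of the 12 was 0.19, against −0.08 over all probe sets, but its sign comes from probe sets within background. By the brightest probe set of each of the 6 subunits tested, the median was −0.18, against −0.10 over all tested probe sets.

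**Figure D2:**
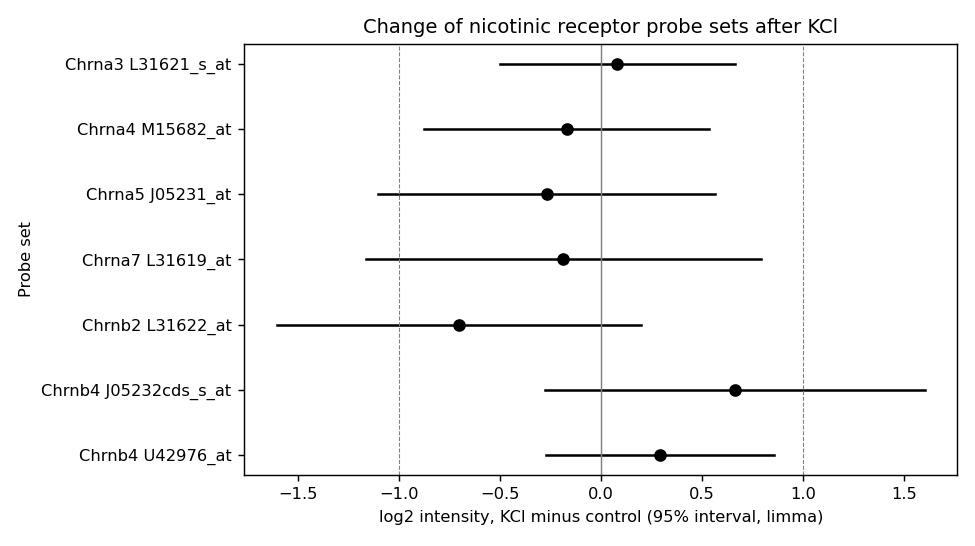
Change of each nicotinic receptor probe set in log2 intensity, KCl minus control, with limma's 95% interval, for the 7 probe sets above background on at least 1 array. Every interval spans 0, and those of Chrna3, Chrna4 and U42976_at of Chrnb4 lie between the dashed lines at a 2-fold change.

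The spread between replicates sets what could be seen. The median absolute log2 difference between replicates of the 12 probe sets was 0.42 for the KCl pair and 0.67 for the control pair. Over the 534 probe sets with means in the members' range, 17 to 170.7, these medians were 0.37 and 0.42. Over all 1263 they were 0.26 and 0.26. The SE of the 8 tested members ran from 0.25 to 0.80 with a median of 0.38, against a median of 0.21 over all tested probe sets. A p that misses the threshold does not show that a subunit was unchanged: except for the 3 intervals inside 2-fold, each interval of a tested member still contained a change of 2-fold or more.

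**Figure D3:**
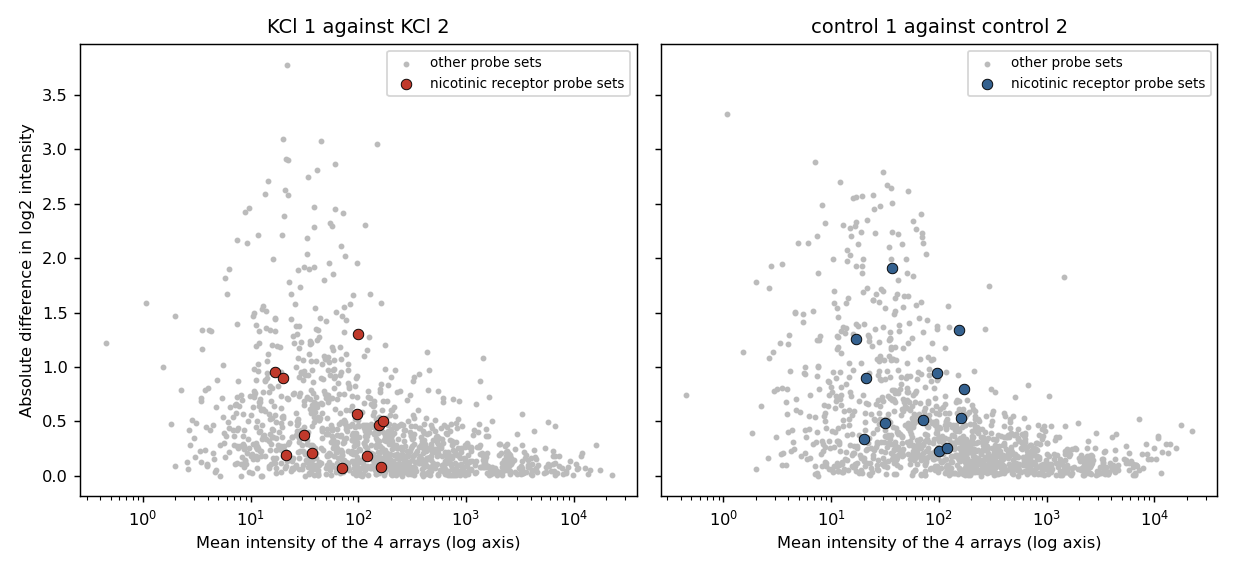
Absolute difference in log2 intensity between the KCl arrays (left) and between the control arrays (right), against the mean intensity of the 4 arrays (log axis). Grey points are single probe sets and coloured points the 12 nicotinic receptor probe sets. The members have means of 17 to 170.7, and the differences of the control pair reach 1.91 at S53987_at.

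The array profile of Chrna4, the brightest member above background on all arrays, was set against 852 tested probe sets of other genes, each centred on its own mean. The closest were Grm4, a metabotropic glutamate receptor gene, Scn9a, a sodium channel gene, and Stx4, a syntaxin gene, with root mean square differences of 0.083, 0.083 and 0.086 in log2. The median over the 852 was 0.39. All 3 shared with Chrna4 higher values on KCl 2 than on KCl 1 and on control 1 than on control 2, and none of them passed the test. Scn9a read 41.9 and 68.5 after KCl, against 74.2 and 44.5 in controls, within background on 3 of 4 arrays. With 4 arrays this is a description of array-to-array variation only.

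Of the other cholinergic genes, 3 passed the test and all were lower after KCl. In the muscarinic list, 2 of 5 tested genes fell and none rose, Chrm1 and Chrm3, the G protein-coupled M1 and M3 receptors. Over all tested probe sets 10.8% passed in either direction. The median log2 change over the list was −0.19. Chrm1 (M16406cds_s_at) read 91.7 and 83.2 after KCl, against 172.8 and 195.2 in controls. Its log2 change was −1.07 ± 0.24 (SE; limma adjusted p = 0.025). Chrm3 (M16407_at) read 320.2 and 361.9 after KCl, against 651.4 and 560.1 in controls, which is −0.83 ± 0.15 in log2 (SE; limma adjusted p = 0.011). The less bright probe sets of Chrm1 (AJ006522mRNA_at) and Chrm3 (AB017656_s_at) were within background on all arrays. They did not pass (limma adjusted p = 0.97 and 0.68). Chrm4 and Chrm2, with the next smallest p, did not pass. Agrn, the gene of agrin, which clusters receptors at the neuromuscular junction, was the 1 tested gene of receptor assembly. It was lower after KCl by M64780_at, at −0.43 ± 0.11 in log2 (SE; limma adjusted p = 0.038). Its less bright M64780_g_at did not pass, at −0.39 ± 0.11 (SE; limma adjusted p = 0.059). With control 1 left out, with control 2 left out, with the replicate block, without the intensity trend and with an ordinary t statistic none of these 3 passed, and Agrn also not with quantile normalization, without KCl 1 or with dim probe sets kept. A direct test of the difference between nicotinic and muscarinic genes was not made.

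Of the genes for synthesis, transport and breakdown of acetylcholine, 2 were tested and neither passed. They were Slc18a3, the vesicular acetylcholine transporter gene, and Colq, which anchors acetylcholinesterase, and both lay above background on all arrays. The 1 probe set of Ache, acetylcholinesterase, read 4.8 and 5.8 after KCl, against 13.5 and 5.7 in controls, all within background. Chat, the acetylcholine-synthesizing enzyme gene, had no probe set with its symbol. The other Cys-loop receptors, the GABA-A, glycine and serotonin 3 receptors that share the nicotinic receptor's fold, had 14 of 26 probe sets above background on all arrays (53.8%). By the brightest probe set of each gene, 0 of 14 tested genes passed in limma and Glra2 and Htr3a, 2 in all, were under 0.05 unadjusted. The 2 probe sets of Gabra5 disagreed: the less bright L08494cds_s_at passed as lower after KCl, at −0.79 ± 0.20 in log2 (SE; limma adjusted p = 0.038), and the brighter X51992_at did not, at −0.13 ± 0.17 (SE; limma adjusted p = 0.68). Gabre and Gabra2 had the next smallest p.

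**Figure D4:**
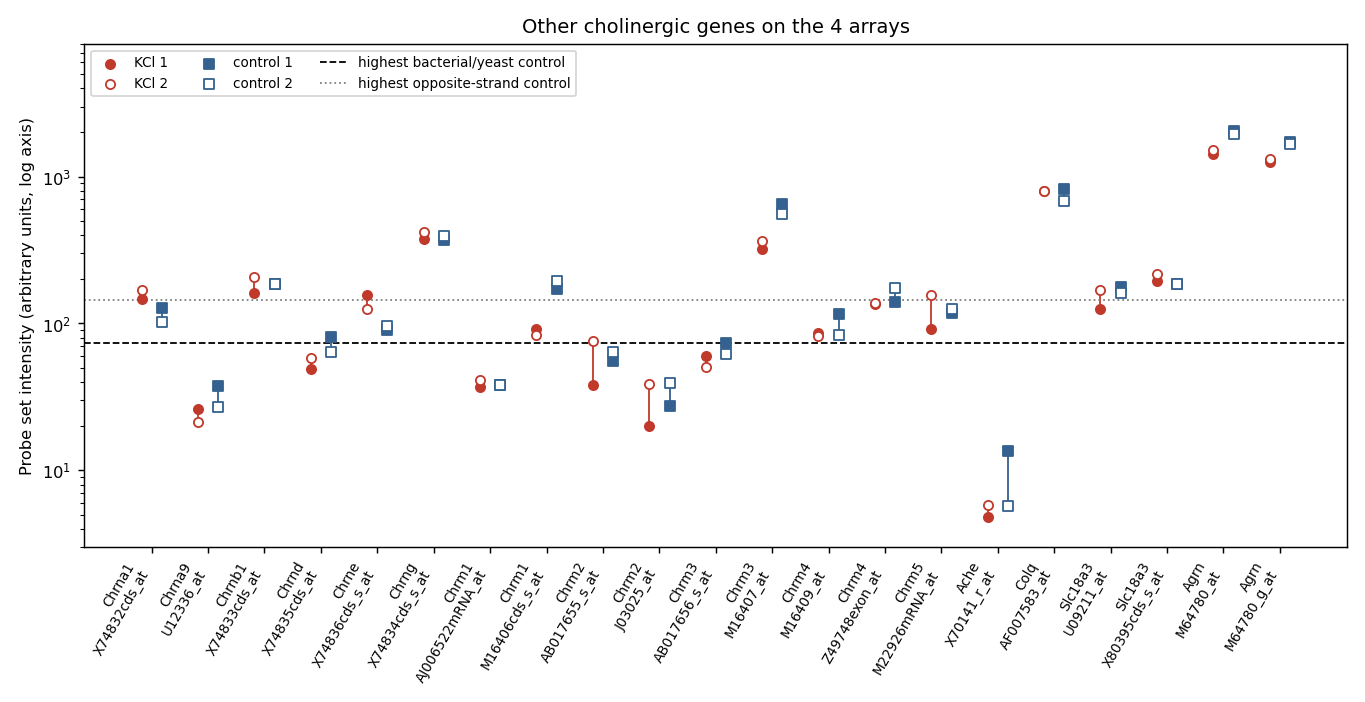
Intensity (log axis, arbitrary units) of probe sets for other cholinergic genes, with KCl arrays as red circles and control arrays as blue squares, replicate 1 filled and replicate 2 open. The dashed line is 73.7 and the dotted line 143.8. Chrm3 (M16407_at) and both probe sets of Agrn lie lower on both KCl arrays than on both control arrays.

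Of 10 neuron marker genes on the array, 9 had a probe set above background on all 4 arrays, as had 5 of 7 astrocyte markers. So had 5 of 5 inhibitory neuron, 2 of 5 oligodendrocyte, 0 of 2 microglial and 1 of 2 endothelial and fibroblast markers. Counted by probe set, 51.8% of all were above it. Cell type markers moved on the same arrays. In bulk cultures fewer cells of a type and less RNA per cell cannot be told apart. Over all tested probe sets 10.8% passed in either direction. Of 7 tested astrocyte markers 6 rose by their brightest probe set (Apoe, Glul, S100b, Slc1a3, Vim and Gja1). Gja1 was within background on both control arrays (32.9 and 41.1). Less bright probe sets of Apoe, Glul and Slc1a3 also passed, but others of Glul, Slc1a3 and S100b did not. The summed intensity of the 7 was 9974 to 12551 after KCl, against 5220 to 5484 in controls. Apoe was the largest part, at 5196 to 6925 after KCl, against 2298 to 2700 in controls. Of 5 tested inhibitory neuron markers 3 fell (Gad1, Slc32a1 and Sst), with sums of 10096 to 10729 after KCl, against 15103 to 15204 in controls. Cck and Npy did not pass. Cck was the largest part of these sums, at 7003 to 7028 after KCl, against 6311 to 6729 in controls. Of 10 tested neuron markers Snap25 alone passed, higher after KCl by its brightest probe set AB003991_at (limma adjusted p = 0.032). Its AB003991_g_at, U56261_s_at and AB003992_s_at did not pass (limma adjusted p = 0.19, 0.17 and 0.41). The median log2 change of the 10 markers was −0.09, and their sums were 31999 to 32533 after KCl, against 33739 to 35045 in controls. The summed intensity of the brightest probe set of each of the 9 nicotinic subunits was 684 to 842 after KCl and 770 to 863 in controls. Without control 1, and also without control 2, 0 astrocyte, 0 neuron and 1 inhibitory neuron marker passed. None of the 5 oligodendrocyte, 2 microglial or 2 endothelial and fibroblast markers tested passed in limma, with 0, 0 and 1 of them under 0.05 before adjustment. No marker with a probe set was listed at 0. The part of these shifts in the nicotinic values was not tested.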

How the data were processed

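Per the labels' protocols, biotin-labelled cRNA from 5 µg of total RNA was hybridized to Affymetrix neurobiology arrays. The deposited values are 1 linear intensity per probe set. The software and scaling are not stated in the sources used here. The authors had brought the arrays to one level, since their 2% trimmed means lay between 502.0 and 502.4, so values were used as deposited and taken to log2. Gene symbols came from the platform annotation, and all 12 members matched RefSeq by gene ID.

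The 59 control probe sets and the dimmest 25% (316 of 1263, means up to 33.3) were left out, and 947 were tested with limma 3.58.1 in R 4.3.3 (lmFit, eBayes with an intensity trend, two-sided, Benjamini-Hochberg over 947, called at an adjusted p below 0.05). An exact permutation test of 2 against 2 arrays cannot give a p below 0.33. The number of arrays limits precision. The fit was checked on simulated arrays whose noise followed mean intensity alone, so the check cannot bear on the intensity trend it assumes. Lists used the brightest probe set of a gene. All members were named. Of the cholinergic and Cys-loop lists, called genes and the 4 with the smallest p were named, and the 3 probe sets nearest in profile to the brightest member above background on all arrays. The members, lists and tests were chosen with earlier results of these data known. Alternatives covered normalization, pseudocount, filter, replicate block, single arrays left out, variance model, threshold and background limit.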

Additional observations from a re-analysis of the deposited data

How the results depend on the processing

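The number of nicotinic probe sets called was 0 under 13 of 14 alternatives and 1 without KCl 2. Of 152 log2 changes of single nicotinic probe sets recomputed under alternatives, 144 kept their direction and call, or moved by less than the replicate SD. The exceptions were J05232cds_s_at of Chrnb4, whose call differed without KCl 2 (log2 change 0.89), the dim Chrna2 with a pseudocount of 16 and 6 reversals. With single arrays left out, Chrna3 ran from −0.044 to 0.21, Chrna4 from −0.57 to 0.23, L31619_at of Chrna7 from −0.84 to 0.46 and J05232cds_s_at from −0.0077 to 1.34. Each reversal comes from leaving out 1 of 2 arrays. The filter settings, replicate block, intensity trend and t statistic leave the log2 change itself as it is. Under these settings the direction was fixed in advance, and so was the result for members left out as dim. Scaling to one trimmed mean hardly moved any change, since the arrays already shared that level.

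The number of nicotinic probe sets above background on all arrays was 3. It was 7 with the 95th percentile of the background probe sets as the limit and 0 with 2 times their highest value. With the highest background value of each array as its limit it was 4, as with quantile normalization. The probe set added was J05232cds_s_at of Chrnb4. Leaving out single arrays gave 3 to 5. Of limits chosen after seeing the data, the opposite-strand controls gave 0 and the background median plus 3 SD gave 7. Signal over background limits every statement on Chrna2, Chrna6 and Chrnb3.

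Over all probe sets 102 were called. The replicate block gave 50, no intensity trend 21 and an ordinary t statistic 0, with 157 at an unadjusted p below 0.05. Leaving out single arrays gave 11 to 178. Over the cholinergic and marker lists 13 genes were called, 6 with the block, 2 without the trend, 0 with the t statistic and 1 to 14 with single arrays left out. Same-numbered arrays did not deviate together (r = −0.03 over 947 probe sets). With 2 arrays per group this cannot decide whether the numbers pair the samples, and the labels do not say. The cause of these shifts was not tested.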

Other observations

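Probe sets for subunits of the muscle nicotinic receptor, a pentamer of the neuromuscular junction, were read above background in these cultures. Of 6 probe sets for nicotinic subunits outside the neuronal set, 4 were above 73.7 on all 4 arrays, as were 51.8% of all probe sets. Chrng, the fetal gamma subunit, read 375.9 on KCl 1 and 418.9 on KCl 2, against 368.5 on control 1 and 396.2 on control 2, above the opposite-strand limit of 143.8 on all 4 arrays. Chrnb1, the muscle beta subunit, read 161.4 and 207.4 after KCl, against 185.1 and 186.1 in controls, also above that limit throughout. The groups overlapped for both genes, and 0 of 5 tested genes in this list passed in limma, with 0 at an unadjusted p below 0.05.

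Chrne, the adult epsilon subunit, read 157 and 125.5 after KCl, against 90.8 and 95.8 in controls, a log2 difference of 0.59 ± 0.26 (SE; limma adjusted p = 0.20). Chrna1, the muscle alpha subunit, read 146.7 and 168.4 after KCl, against 126.8 and 102.8 in controls, a log2 difference of 0.46 ± 0.24 (SE; limma adjusted p = 0.27). Neither group pair overlapped, and neither gene passed. Over all probe sets 52.6% did not overlap, 21.3% with KCl higher and 31.3% with KCl lower. Chrnd, the delta subunit, exceeded background on 1 array, control 1, and Chrna9, known from cochlear hair cells, on none. Both read lower after KCl with no overlap. The probe sets of Chrng (X74834cds_s_at) and Chrne (X74836cds_s_at) carry the suffix for probes that may match several transcripts. Whether the probe sets of this list read other transcripts was not tested, and intensities of different probe sets cannot be set against each other.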
